A study of Mus musculus with 27 samples.

Results

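Ccn1, Ccn2, Ankrd1, Amotl2, Axl, Lats2 and Ajuba are transcribed under the control of the coactivator YAP and were followed in mouse liver organoids, assembloids and freshly isolated hepatocytes. These 7 of the 21848 genes in the deposited table were taken by their symbols, across 27 bulk RNA-seq libraries of 9 conditions with 3 libraries each. They were chosen with earlier results of these data known. Of the 7 genes, 6 passed the filter on low counts and were tested in every comparison, and Lats2 did not.

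YAP and its paralogue TAZ (gene Wwtr1) do not bind DNA themselves but act through the TEAD transcription factors. The Hippo kinases MST and LATS phosphorylate both coactivators and keep them out of the nucleus, and stretched actin, a stiff matrix and loss of cell contacts relieve this. In the adult liver YAP is known to be low in hepatocytes and higher in bile duct cells, and its forced activation moves hepatocytes towards a duct-like state.

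HepOrgs are organoids grown from hepatocytes of C57BL/6 mice in Matrigel. They were expanded in HM-Wnt, and at passage 2 were either kept there or moved to the minimal medium MM, for 1 or 2 weeks (7 or 14 days). Both media hold Wnt conditioned medium and a ROCK inhibitor, whereas EGF, HGF, FGFs, R-spondin, gastrin, nicotinamide, the GSK3 inhibitor CHIR and an inhibitor of TGF-β receptors are in HM-Wnt only. Assembloids were made by rocking 10 HepOrgs with 1000 cholangiocytes and either 250 (homeostatic) or 2500 (fibrotic-like) portal mesenchymal cells, and were kept in MM and Matrigel for 1 or 2.5 weeks (7 or 18 days). All groups carry a wild-type genotype label except replicate 3 of the hepatocytes, titled wild type but with the genotype label MDR2-het, and leaving it out changed no call of the 6 genes. By the study's methods, assembloids generally held cholangiocytes grown as organoids from mice with a nuclear tdTomato, and SCA1-sorted mesenchyme with a GFP reporter at Pdgfra. The donor mice were adults of both sexes, and the labels do not say whether replicates came from separate animals, so p-values measure the spread between these libraries, which may in part be technical.

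The 27 libraries held 30289364 to 65345685 counts. Hepatocyte markers summed to between 60048 and 73698 CPM (counts scaled to a common library total) in freshly isolated hepatocytes and between 24780 and 66299 CPM in HepOrgs. A pair of assembloid libraries stood apart from the rest. Replicate 2 of the homeostatic assembloids at 1 week had 1674 CPM of hepatocyte markers and counts on 8463 genes, against 14014 to 16016 genes in the other assembloid libraries, and replicate 3 of the fibrotic-like assembloids at 1 week had 7183 CPM. Hnf4a, a gene of the same marker list, was not lower in them. It was at 235 and 183 CPM in these libraries and at 151 to 202 CPM in the other assembloid libraries. Both are called libraries low in Alb below, and results that rest on them are given with and without them. In freshly isolated hepatocytes, immediate early genes summed to 4662 CPM in replicate 1 and to 948 and 1161 CPM in replicates 2 and 3, and immune markers were highest in replicate 2 (352 CPM).

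TEAD factors recognise the letters GGAATG, read as CATTCC on the other strand, and promoter windows from 250 bases before to 50 bases after the annotated start were searched for them on both strands. The windows are RefSeq sequences on GRCm38.p6 and were found for 6 of the 7 genes, all but Ccn2. Those of the tested genes are given here 5′ to 3′ on the strand of the gene, with the TEAD letters in capitals. They are given because the coactivators act through TEAD factors, and lie at chr3:145649936-145650235 (Ccn1), chr19:36119795-36120094 (Ankrd1), chr9:102717554-102717853 (Amotl2), chr7:25788684-25788983 (Axl) and chr14:54577612-54577911 (Ajuba).
Ccn1: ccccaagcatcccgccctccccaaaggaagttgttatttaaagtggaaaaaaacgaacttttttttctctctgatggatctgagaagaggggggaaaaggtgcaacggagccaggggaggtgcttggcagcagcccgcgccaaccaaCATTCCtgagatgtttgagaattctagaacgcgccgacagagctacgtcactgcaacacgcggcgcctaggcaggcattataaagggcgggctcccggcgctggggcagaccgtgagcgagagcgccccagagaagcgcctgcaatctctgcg
Ankrd1: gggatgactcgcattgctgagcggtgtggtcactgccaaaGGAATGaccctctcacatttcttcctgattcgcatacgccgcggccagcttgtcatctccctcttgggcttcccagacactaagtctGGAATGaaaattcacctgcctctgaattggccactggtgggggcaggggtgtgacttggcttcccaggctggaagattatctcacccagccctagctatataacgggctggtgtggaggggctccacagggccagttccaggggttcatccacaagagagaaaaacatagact
Amotl2: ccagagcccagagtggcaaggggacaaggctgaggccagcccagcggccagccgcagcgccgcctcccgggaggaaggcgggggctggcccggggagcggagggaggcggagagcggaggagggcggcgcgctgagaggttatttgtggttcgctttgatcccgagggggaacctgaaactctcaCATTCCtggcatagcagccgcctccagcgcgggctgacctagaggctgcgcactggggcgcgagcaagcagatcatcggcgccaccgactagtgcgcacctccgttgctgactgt
Axl: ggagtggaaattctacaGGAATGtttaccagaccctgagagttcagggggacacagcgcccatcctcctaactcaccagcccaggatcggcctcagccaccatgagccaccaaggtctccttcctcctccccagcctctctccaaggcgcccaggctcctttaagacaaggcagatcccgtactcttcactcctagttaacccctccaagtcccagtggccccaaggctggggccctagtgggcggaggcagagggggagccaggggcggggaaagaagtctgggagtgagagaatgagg
Ajuba: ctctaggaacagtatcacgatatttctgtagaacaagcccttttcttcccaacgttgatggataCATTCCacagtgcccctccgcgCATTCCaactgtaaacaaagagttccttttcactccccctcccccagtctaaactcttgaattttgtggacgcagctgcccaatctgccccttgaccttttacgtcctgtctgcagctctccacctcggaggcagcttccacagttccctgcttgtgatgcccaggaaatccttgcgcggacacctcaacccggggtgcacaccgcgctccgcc

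All 6 genes with a window held the letters in at least 1 window, against 16.6% of 27025 genes (14.7% of 32851 windows). Ankrd1 had 2 matches, at −210 to −205 and −123 to −118 counted from the start, and Ajuba had 2, at −186 to −181 and −164 to −159. Ccn1 had 1 match at −103 to −98, Amotl2 1 at −65 to −60, Axl 1 at −233 to −228 and Lats2 1 at 5 to 10 in the first of its 2 windows. The AP-1 motif TGANTCA and the CArG box of SRF were in none of these windows and in 9.0% and 1.8% of genes. A match describes these letters in this window only, and binding was not measured.

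In the annotation of GRCm39, Ccn1 (ENSMUSG00000028195) lies on chromosome 3 from 145352720 to 145355738 on the minus strand and Ccn2 (ENSMUSG00000019997) on chromosome 10 from 24471333 to 24474900 on the plus strand. Ankrd1 (ENSMUSG00000024803) lies on chromosome 19 from 36089352 to 36097506, Axl (ENSMUSG00000002602) on chromosome 7 from 25456535 to 25488329 and Ajuba (ENSMUSG00000022178) on chromosome 14 from 54804787 to 54815027, all on the minus strand, and Amotl2 (ENSMUSG00000032531) on chromosome 9 from 102593836 to 102610617 on the plus strand. Ccn1, Ccn2 and Ankrd1 overlap antisense lncRNA genes over 31.2%, 47.1% and 60.1% of their span. The library kit does not mark strand, so reads of these pairs cannot be told apart.

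Fold changes are given on the log2 scale with their standard error (SE), and levels as CPM scaled by edgeR's TMM factors (TMM CPM), in the order of replicates 1, 2 and 3. Per kilobase of exon, a scale that allows genes to be compared, the median level over the 27 libraries was highest for Ccn1 (54.0 TMM CPM per kb), followed by Ccn2 (9.64), Ajuba (5.65), Amotl2 (3.88), Ankrd1 (3.86) and Axl (0.476). The conditions were also ordered by their median level in TMM CPM for each gene, and 2 neighbours in that order were counted as overlapping where the ranges of their 3 libraries overlapped. All 8 neighbour pairs overlapped for Ccn1 and for Amotl2, 7 of 8 for Ankrd1 and Axl, and 6 of 8 for Ccn2 and Ajuba. Single steps in the order were thus mostly within the spread of the libraries. The plot of levels by condition shows each library.

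**Figure D1:**
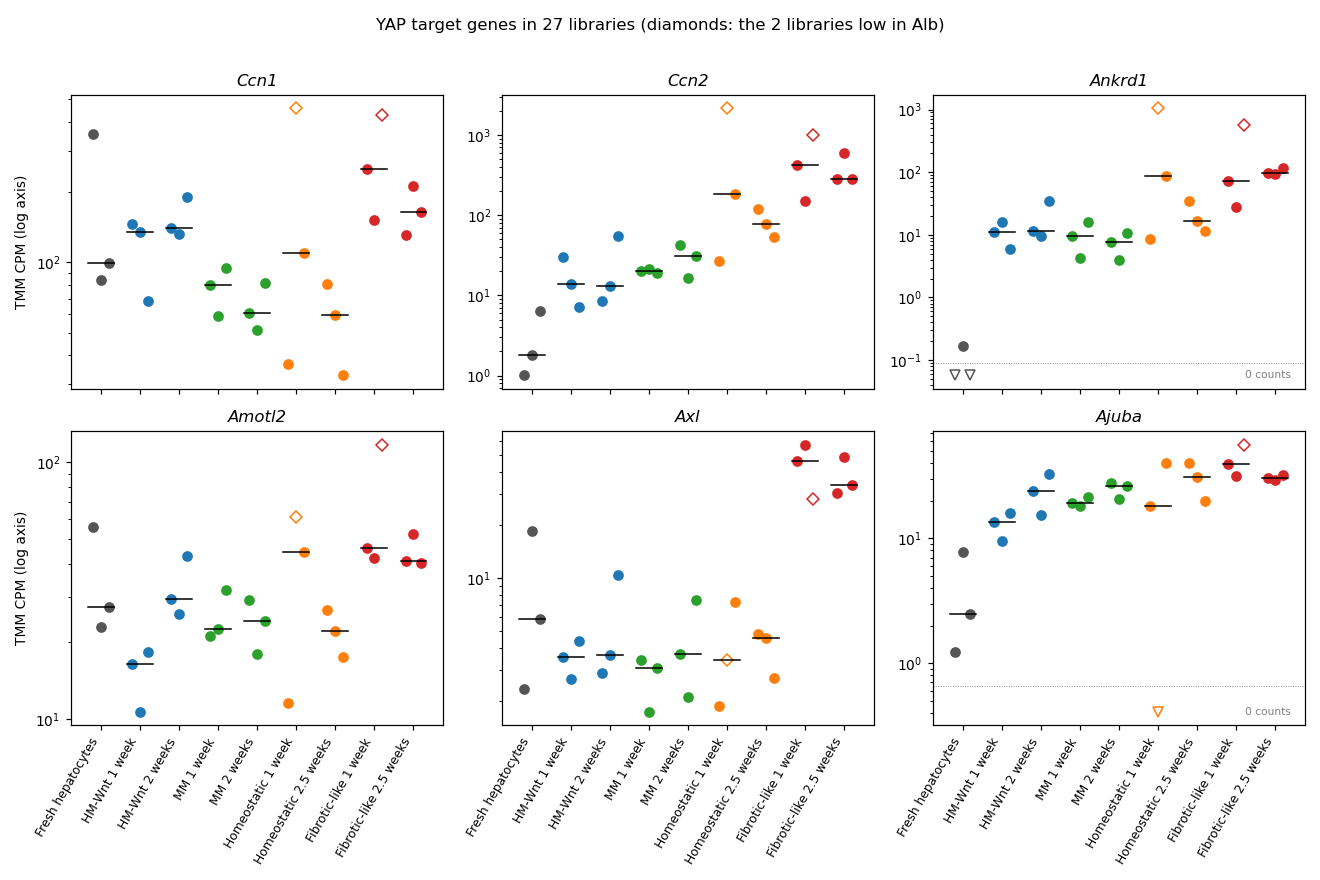
Level of each tested YAP target gene in TMM CPM (log axis) in the 9 conditions. Points are libraries, lines are medians of 3 libraries, open diamonds are the libraries low in Alb and open triangles are libraries with 0 counts. Ankrd1 was at 0 to 0.170 TMM CPM in freshly isolated hepatocytes and at 3.94 or more in every other library, and Axl was at 28.0 or more in the 6 fibrotic-like libraries and at 18.6 or less elsewhere.

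Lats2 (ENSMUSG00000021959, GRCm39 chromosome 14 from 57926960 to 57995845, minus strand), which encodes the LATS kinase that YAP induces as its own inhibitor, had 0 to 2 counts in each of the 27 libraries and 10 counts in all. Its level could not be compared between conditions at this depth. The gene model Gm49361 on the same strand covers 82.2% of its span and 95.0% of its exonic bases, and 28.2% of them lie within exons of Gm49361, which itself had 0 to 70 counts. Counting in which reads shared by overlapping genes are left unassigned would lower both genes, and whether this was the case was not tested. The paralogue Lats1 was at 14.6 to 16.2 TMM CPM in freshly isolated hepatocytes and 14.7 to 32.0 TMM CPM in HepOrgs.

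The first comparison asked how HepOrgs differ from freshly isolated hepatocytes. Ankrd1, Ccn2 and Ajuba were higher in HepOrgs than in freshly isolated hepatocytes in both media at both times, with no overlap between the libraries. Every HepOrg library was above every hepatocyte library for 28.7% and 32% of all genes in HM-Wnt at 1 and 2 weeks, and for 28.1% and 26.8% in MM. By edgeR with all libraries Ccn1 was called lower in MM at both times and Amotl2 in HM-Wnt at 1 week, but these 3 calls were lost without replicate 1 of the hepatocytes. Axl passed in none of the 4 comparisons by edgeR and in 1, MM at 1 week, by DESeq2. In bulk RNA, fewer cells that express a gene and less RNA per cell cannot be told apart.

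Ankrd1 encodes a nuclear and sarcomeric ankyrin repeat protein and is among the YAP targets most used as a readout. In freshly isolated hepatocytes it had 0, 4 and 0 counts, or 0, 0.170 and 0 TMM CPM, where 3 counts would be 0.0810, 0.128 and 0.0910 TMM CPM. In HM-Wnt HepOrgs Ankrd1 was at 10.9, 15.9 and 6.03 TMM CPM at 1 week and at 11.5, 9.63 and 34.2 TMM CPM at 2 weeks. The MM HepOrgs had 9.57, 4.25 and 16 TMM CPM at 1 week and 7.70, 3.94 and 10.7 TMM CPM at 2 weeks. The lowest of the 12 HepOrg libraries was 23.1-fold above the highest freshly isolated library. The fitted log2 fold change of Ankrd1 was 7.26 to 8.58 (SE 1.04 to 1.05, edgeR adjusted p from 2.24e-05 to 0.000136), a size that depends on the prior count because the hepatocyte level was close to 0. The direction and the call held under every alternative that tested the gene.

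Ccn2 encodes connective tissue growth factor, a secreted matricellular protein that is higher in fibrosis. It was at 1.00, 1.79 and 6.38 TMM CPM in freshly isolated hepatocytes. In HM-Wnt it was at 30.0, 13.7 and 7.11 TMM CPM at 1 week and 8.42, 13.1 and 55.7 TMM CPM at 2 weeks, and in MM at 20.1, 21.1 and 18.9 TMM CPM at 1 week and 42.2, 16.4 and 30.7 TMM CPM at 2 weeks. The lowest HepOrg library, HM-Wnt at 1 week replicate 3, was only just above the highest hepatocyte library. By edgeR Ccn2 rose by a log2 fold change of 2.42 (SE 0.80, edgeR adjusted p = 0.0225) and 3.05 (0.82, adjusted p = 0.00695) in HM-Wnt at 1 and 2 weeks. In MM it was 2.68 (0.80, adjusted p = 0.0167) and 3.25 (0.82, adjusted p = 0.00679). The call for Ccn2 was lost at 1 week in both media without replicate 1 of the hepatocytes (2.01 in HM-Wnt, edgeR adjusted p = 0.0711, and 2.27 in MM, adjusted p = 0.0542) and without their replicate 2 (2.18, adjusted p = 0.0677, and 2.43, adjusted p = 0.0536). It was also lost without replicate 1 of HM-Wnt at 1 week (1.73, adjusted p = 0.0961) and, at 2 weeks, without replicate 3 of HM-Wnt (1.80, adjusted p = 0.0518).

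Ajuba, a LIM domain protein of cell junctions that binds and inhibits LATS kinases, showed the same direction as Ccn2. It was at 1.22, 7.71 and 2.46 TMM CPM in freshly isolated hepatocytes and at 13.4, 9.53 and 15.9 TMM CPM in HM-Wnt HepOrgs at 1 week. All other HepOrg libraries were between 15.2 and 32.7 TMM CPM. The highest hepatocyte library, replicate 2, was below every HepOrg library. Ajuba had a log2 fold change of 1.74 (SE 0.51, edgeR adjusted p = 0.0116) and 2.64 (0.52, adjusted p = 0.000884) in HM-Wnt, and 2.34 (0.51, adjusted p = 0.00263) and 2.7 (0.52, adjusted p = 0.00117) in MM, at 1 and 2 weeks. With only the 2 groups in the fit, the difference in HM-Wnt at 1 week missed the threshold (1.76, edgeR adjusted p = 0.0655).

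Ccn1 encodes CYR61, the other secreted CCN protein of the set. In freshly isolated hepatocytes it was at 353, 83.7 and 99.1 TMM CPM, so replicate 1, the library with the most immediate early gene counts, was over 3 times the others. In HM-Wnt HepOrgs Ccn1 was at 145, 135 and 68.5 TMM CPM at 1 week and 141, 132 and 190 TMM CPM at 2 weeks, and in MM at 79.9, 58.7 and 94.7 TMM CPM at 1 week and 60.7, 51.3 and 81.3 TMM CPM at 2 weeks. The MM libraries at 2 weeks lay below all hepatocyte libraries, as they did for 24.7% of all genes, and the other groups overlapped them. In MM the log2 fold change of Ccn1 was −1.21 (SE 0.46, edgeR adjusted p = 0.0487) at 1 week and −1.48 (0.46, adjusted p = 0.0216) at 2 weeks. In HM-Wnt it was −0.64 (0.46, adjusted p = 0.26) and −0.21 (0.45, adjusted p = 0.719). Without replicate 1 of the hepatocytes the MM calls were lost (−0.25, edgeR adjusted p = 0.564, and −0.51, adjusted p = 0.239) and the HM-Wnt values turned to 0.31 and 0.72. At 1 week the call was also lost without any 1 of the MM libraries, and at 2 weeks without replicate 1 or 2 of MM (edgeR adjusted p from 0.0623 to 0.145 in these 5 fits). With all libraries kept, the Ccn1 call at 1 week was lost with the replicate block (edgeR adjusted p = 0.0663), no filter (0.0552), at least 10 counts in every library (0.0565) and only the 2 groups (0.142), and by limma on log2(TPM + 1) (−0.31, adjusted p = 0.61). At 2 weeks it was lost with only the 2 groups (edgeR adjusted p = 0.0863) and by limma (−0.68, adjusted p = 0.262).

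Amotl2 encodes an angiomotin that holds YAP at cell junctions and is induced by it. It was at 55.8, 22.8 and 27.4 TMM CPM in freshly isolated hepatocytes and at 16.4, 10.7 and 18.3 TMM CPM in HM-Wnt HepOrgs at 1 week, where no libraries overlapped (25.7% of all genes were lower in this way). The other HepOrg libraries were between 17.9 and 43.3 TMM CPM and overlapped the hepatocytes. In HM-Wnt at 1 week the log2 fold change of Amotl2 was −1.25 (SE 0.34, edgeR adjusted p = 0.00757), and the call was lost without replicate 1 of the hepatocytes (−0.76, adjusted p = 0.0507) and by limma on log2(TPM + 1) (−0.57, adjusted p = 0.216). The remaining values were −0.12 in HM-Wnt at 2 weeks and −0.51 and −0.58 in MM (edgeR adjusted p = 0.787, 0.23 and 0.178).

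Axl, a receptor tyrosine kinase of the TAM family, was at 2.34, 18.6 and 5.87 TMM CPM in freshly isolated hepatocytes. Its HepOrg libraries were between 1.73 and 10.4 TMM CPM and overlapped the hepatocytes in every condition. Replicate 2, highest among the hepatocytes, was also the highest of them in immune markers, whose part in the value was not tested. For Axl the log2 fold change was between −1.74 and −0.69 (SE 0.69 to 0.70, edgeR adjusted p from 0.062 to 0.42). At 2 weeks, leaving out replicate 2 turned it to 0.46 in HM-Wnt and 0.12 in MM. Without replicate 1 of the hepatocytes Axl was called lower at 1 week (−1.83 in HM-Wnt, edgeR adjusted p = 0.0347, and −2.17 in MM, adjusted p = 0.0191). With all libraries, DESeq2 called Axl lower in MM at 1 week (−1.76, DESeq2 adjusted p = 0.0232).

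In all, 4 of the 6 tested genes passed the threshold of adjusted p under 0.05 in HM-Wnt at 1 week, where 49.7% of 13396 genes did. In HM-Wnt at 2 weeks 3 passed (51.8% of genes), and in MM 4 passed at 1 week (42.8%) and 4 at 2 weeks (39.7%). So large a share of all genes passed that these counts are not particular to the 6 genes. The median log2 fold change of the 6 genes was 0.55, 1.26, 0.92 and 1.06 in these comparisons, beside 0.02, 0.03, 0.00 and −0.01 over all genes tested, and bounding Ankrd1 at 23.1-fold would not move these medians. The 4 comparisons share the hepatocyte libraries, and every direction in them rests on the same 3 libraries. On the scale of log2(TPM + 1) the median of all genes was itself 0.40 to 0.68, and Ccn1 in HM-Wnt, Amotl2 in HM-Wnt at 2 weeks and in MM at 1 week, and Axl in HM-Wnt at 2 weeks changed sign. Markers of cholangiocytes summed to 29.1 to 116 CPM in freshly isolated hepatocytes and 3866 to 15499 CPM in HepOrgs. Of 8 tested, 4, 6, 6 and 6 were higher and 1, 1, 0 and 0 lower in the order of these comparisons. Krt19, which defines that type, was at 0 to 0.560 CPM in hepatocytes and 0.880 to 25.1 CPM in HepOrgs. All 8 endothelial markers were lower in all 4 comparisons (40.97 to 193 CPM summed in hepatocytes, 0.900 to 11.9 CPM in HepOrgs). Of 8 immune markers tested 7, 6, 6 and 3 were lower and 1 was higher in each comparison, and their summed levels overlapped (33.9 to 352 CPM and 6.74 to 770 CPM). The part of these cell types in the levels of the 6 genes was not tested.

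**Figure D2:**
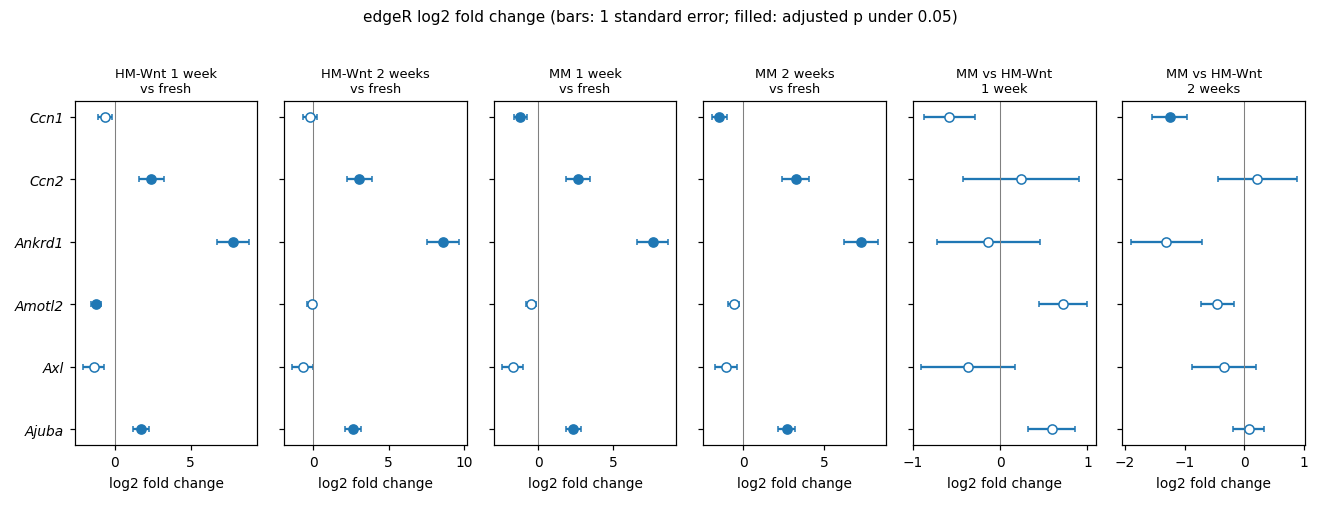
edgeR log2 fold change of the 6 tested genes in HepOrgs against freshly isolated hepatocytes and in MM against HM-Wnt. Bars are 1 standard error and filled points have an adjusted p under 0.05. Ankrd1, Ccn2 and Ajuba lie to the right in all 4 comparisons with hepatocytes, and Ccn1 is the only filled point between media.

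The study moved HepOrgs from HM-Wnt to MM to find a medium for co-culture, and the comparison of media asked what that did to these genes. Ccn1 was lower in MM than in HM-Wnt at 2 weeks, with no overlap between the libraries (51.3 to 81.3 against 132 to 190 TMM CPM), as for 19.3% of all genes. Its log2 fold change was −1.25 (SE 0.30, edgeR adjusted p = 0.0218), and with the replicate number as a block it was −1.25 (adjusted p = 0.0147). The call was lost without replicate 1 or 2 of MM or replicate 1 or 3 of HM-Wnt, at values of −1.31 to −1.07 (edgeR adjusted p from 0.0516 to 0.0914). At 1 week Ccn1 was at −0.58 (SE 0.29, adjusted p = 0.261), and the interaction of medium and time was −0.67 (0.41, adjusted p = 0.673), so a difference between the times was not shown.

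At 1 week Amotl2 and Ajuba were higher in MM than in HM-Wnt in every library, at 21.1 to 31.7 against 10.7 to 18.3 TMM CPM and 17.9 to 21.5 against 9.53 to 15.9 TMM CPM, as were 12.9% of all genes. Their log2 fold changes were 0.72 (SE 0.28, edgeR adjusted p = 0.157) and 0.59 (0.27, adjusted p = 0.221). In the HepOrgs libraries with the same replicate number deviated together, and with that number as a block Amotl2 passed (0.75, SE 0.19, edgeR adjusted p = 0.0389) while Ajuba did not (0.63, 0.18, adjusted p = 0.054). At 2 weeks the values were −0.46 and 0.07 (adjusted p = 0.308 and 0.898). Ankrd1 was at −0.13 at 1 week and −1.30 at 2 weeks (SE 0.60, adjusted p = 0.178), and Ccn2 and Axl were between −0.37 and 0.24 at both times (adjusted p from 0.724 to 0.873).

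Without the block, none of the 6 genes passed at 1 week by edgeR, where 2.98% of 12989 genes did, and 2 had an unadjusted p under 0.05 (22.5% of all genes). At 2 weeks 1 of 6 passed, where 11.5% of genes did. DESeq2 called none of the 6 at 1 week and Ccn1 at 2 weeks. With the block, 730 genes were higher and 502 lower at 1 week, against 229 and 158 without it, and 1427 higher and 1117 lower at 2 weeks, against 889 and 599.

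Time in culture was compared within each medium. In HM-Wnt Amotl2 was at 16.4, 10.7 and 18.3 TMM CPM at 1 week and at 29.5, 25.7 and 43.3 TMM CPM at 2 weeks, without overlap (6.81% of all genes were higher in this way), and Ajuba was at 13.4, 9.53 and 15.9 TMM CPM and then at 23.8, 15.2 and 32.7 TMM CPM. Replicate 3 of HM-Wnt at 2 weeks was the highest HepOrg library for Ccn1, Ccn2, Ankrd1, Amotl2, Axl and Ajuba. The log2 fold changes were 1.12 for Amotl2 (SE 0.28) and 0.90 for Ajuba (0.27), with an edgeR adjusted p of 0.556 for both. No gene of any kind passed in this comparison by edgeR (0% called, 1134 genes with an unadjusted p under 0.05, 22 genes called by DESeq2), and 2 of the 6 had an unadjusted p under 0.05. With the replicate block the adjusted p was 0.075 for Amotl2 and 0.113 for Ajuba. In MM 0.0154% of genes passed between the times and none of the 6, whose log2 fold changes were between −0.39 and 0.71. The interaction of medium and time was largest for Amotl2 (−1.18, SE 0.39, edgeR adjusted p = 0.671), and no gene passed (0% called, 951 genes with an unadjusted p under 0.05, 46 called by DESeq2).

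Assembloids add cholangiocytes and portal mesenchyme to HepOrgs, and the comparison of 2500 with 250 mesenchymal cells was made to model a fibrotic-like state. Axl was higher in fibrotic-like than in homeostatic assembloids in every library at both times. Ccn1, Ccn2, Ankrd1 and Amotl2 were also higher in every library at 2.5 weeks, while at 1 week their libraries overlapped. By edgeR no gene passed the threshold with all 12 libraries in the fit. For the comparison at 1 week, this fit found 0% of genes simulated at a log2 fold change of 2 and 44% at 5. The lack of a call there thus does not show the lack of a difference.

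Axl was at 1.87, 3.40 and 7.27 TMM CPM in homeostatic and 46.3, 57.5 and 28.0 TMM CPM in fibrotic-like assembloids at 1 week. At 2.5 weeks it was at 4.79, 4.57 and 2.69 and at 30.6, 49.1 and 34.0 TMM CPM. The lowest fibrotic-like library was thus the one low in Alb. Axl had a log2 difference of 3.41 (SE 0.59, edgeR adjusted p = 0.27) at 1 week and 3.22 (0.58, adjusted p = 0.713) at 2.5 weeks. Without the 2 libraries low in Alb, an alternative chosen after values had been seen, it was 3.48 (0.59, adjusted p = 0.0381) and 3.22 (0.48, adjusted p = 0.0195). Without homeostatic replicate 2 alone, Axl at 1 week was 3.24 (edgeR adjusted p = 0.0408). DESeq2 called it with all 12 libraries (3.39, DESeq2 adjusted p = 4.04e-06, and 3.22, adjusted p = 9.98e-05).

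Mesenchyme markers moved with these groups. They summed to 89.6 to 1442 CPM in homeostatic and 556 to 8619 CPM in fibrotic-like assembloids at 1 week, and to 157 to 231 CPM and 1401 to 7226 CPM at 2.5 weeks. Over the 12 assembloid libraries Axl had a Pearson correlation of 0.80 with Col1a1, the collagen of mesenchymal cells, on log2 TMM CPM, and of 0.96 over the 10 libraries without those low in Alb. With Krt19 and with Msln it was 0.50 and 0.41 over 12 libraries and 0.78 for both over 10. These points share the mesenchyme ratio that defines the groups, and the part of the mesenchyme in the level of Axl was not tested.

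Ccn2 was at 26.5, 2144 and 183 TMM CPM in homeostatic and 417, 150.0 and 1001 TMM CPM in fibrotic-like assembloids at 1 week. At 2.5 weeks it was at 118, 77.4 and 53.1 and at 280.4, 601 and 283 TMM CPM. The highest value of each group at 1 week was that of the library low in Alb. For Ccn2 the log2 fold change was −0.49 (SE 1.16, edgeR adjusted p = 0.888) at 1 week and 1.42 (0.84, adjusted p = 0.283) without both libraries, and 2.21 (1.21, adjusted p = 0.826) at 2.5 weeks.

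Ankrd1 was at 8.56, 1048 and 87.2 TMM CPM in homeostatic and 73.0, 27.8 and 572 TMM CPM in fibrotic-like assembloids at 1 week. At 2.5 weeks it was at 35.0, 16.3 and 11.5 and at 97.6, 94.8 and 119 TMM CPM. Here too the libraries low in Alb were the highest of their groups at 1 week. For Ankrd1 the log2 fold change was −0.67 (SE 1.36, edgeR adjusted p = 0.864) at 1 week, 0.05 (0.90, adjusted p = 0.976) without both libraries, and 2.30 (1.42, adjusted p = 0.876) at 2.5 weeks.

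Ccn1 was at 36.6, 456 and 110 TMM CPM in homeostatic and 250, 152 and 428 TMM CPM in fibrotic-like assembloids at 1 week, and at 80.9, 59.5 and 32.8 and 131, 212 and 164 TMM CPM at 2.5 weeks. Amotl2 was at 11.6, 61.3 and 44.7 and at 46.4, 42.3 and 117 TMM CPM at 1 week, and at 26.7, 22.1 and 17.5 and 41.2, 52.4 and 40.6 TMM CPM at 2.5 weeks. For both genes the groups overlapped at 1 week and not at 2.5 weeks. The log2 fold change of Ccn1 was 0.54 (SE 0.74) and 1.53 (0.75), and that of Amotl2 0.85 (0.57) and 1.00 (0.57), at 1 and 2.5 weeks (edgeR adjusted p from 0.539 to 0.846).

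Ajuba was at 18.1, 0 and 40.0 TMM CPM in homeostatic and 39.1, 31.7 and 55.9 TMM CPM in fibrotic-like assembloids at 1 week, and at 39.9, 30.6 and 19.7 and 30.1, 29.1 and 32.1 TMM CPM at 2.5 weeks. The 0 is in the homeostatic library low in Alb, where 3 counts would be 0.0610 TMM CPM. Lats1, at 0 there too, was at 13.3 or more in every other assembloid library. The log2 fold change of Ajuba was 1.11 (SE 1.40, edgeR adjusted p = 0.772) at 1 week and 0.01 (1.39, adjusted p = 1) at 2.5 weeks, and without both libraries low in Alb 0.27 (0.39, adjusted p = 0.673) and 0.01 (0.32, adjusted p = 0.991).

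At 1 week 1 of 6 genes, Axl, was higher in every fibrotic-like library, as were 17.4% of 14253 genes, and at 2.5 weeks 5 of 6 were, as were 20.5%. By edgeR none of the 6 passed at either time (0% of genes called at both, with 2012 and 944 genes at an unadjusted p under 0.05, Axl among them). DESeq2 called 642 genes higher and 225 lower at 1 week and 271 and 2 at 2.5 weeks, of the 6 only Axl. In a fit of only the 2 groups compared, Ccn2, Ankrd1, Amotl2 and Axl passed at 2.5 weeks (edgeR adjusted p from 0.00587 to 0.0365). The share of all genes that passed in that fit is not given here, so these calls are not read as particular to the 6 genes. The median log2 fold change of the 6 genes was 0.69 and 1.87, beside 0.20 and 0.03 over all genes.

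**Figure D3:**
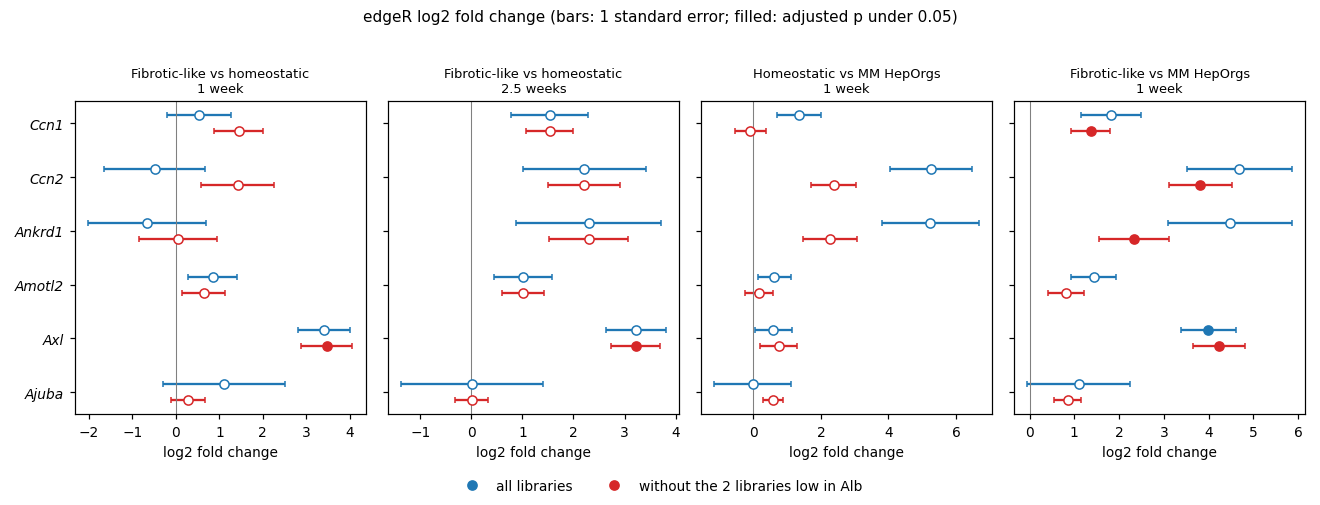
edgeR log2 fold change of the 6 tested genes between assembloid types and against MM HepOrgs, with all libraries and without the 2 low in Alb. Bars are 1 standard error and filled points have an adjusted p under 0.05. Axl lies at 3.22 to 4.23 in the 3 comparisons of fibrotic-like assembloids, and against MM HepOrgs Ankrd1 moves from 5.24 to 2.27 in homeostatic and from 4.47 to 2.33 in fibrotic-like assembloids without the 2 libraries.

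Across time, homeostatic assembloids at 2.5 weeks were compared with those at 1 week. The log2 fold change was −1.71 (SE 0.75) for Ccn1, −3.13 (1.25) for Ccn2 and −4.07 (1.53) for Ankrd1, each with an edgeR adjusted p of 0.758. Without the libraries low in Alb these values were −0.34, −0.34 and −1.19. Fibrotic-like assembloids had log2 fold changes between −1.11 and −0.21 for the 6 genes, and without the libraries low in Alb Ccn2 was at 0.45 and Ankrd1 at 1.05. No gene passed in either comparison by edgeR or in the interaction of mesenchyme ratio and time (0% called in each, with 936, 121 and 278 genes at an unadjusted p under 0.05 and 3, 0 and 0 of the 6 among them). DESeq2 called 1 gene higher and 14 lower in the first of them and none in the others.

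The assembloids at 1 week were also set beside HepOrgs kept in the same medium for the same time. By the study's methods, HepOrgs for assembloids were also freed from Matrigel, picked by shape, rocked with the other cells and embedded again. The added cells and this handling cannot be told apart here. Axl was higher in fibrotic-like assembloids than in MM HepOrgs (28.0 to 57.5 against 1.73 to 3.41 TMM CPM), with a log2 fold change of 4.0 (SE 0.62, edgeR adjusted p = 0.0212). Each of the 6 genes was above the MM HepOrgs in every fibrotic-like library, as were 26% of 14386 genes. Ccn2 was at 150.0 to 1001 against 18.9 to 21.1 TMM CPM and Ankrd1 at 27.8 to 572 against 4.25 to 16 TMM CPM. Their log2 fold changes of 4.69 (1.18, edgeR adjusted p = 0.0603) and 4.47 (1.39, adjusted p = 0.0941) missed the threshold. Ccn1, Amotl2 and Ajuba were at 1.82 (0.67), 1.43 (0.51) and 1.10 (1.15), with an edgeR adjusted p of 0.142, 0.128 and 0.675.

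By edgeR 1 of 6 genes passed in fibrotic-like assembloids, where 0.751% of all genes did. The call for Axl was lost without any 1 of the 3 MM libraries or without replicate 1 or 2 of the fibrotic-like libraries, at 3.75 to 4.18 (edgeR adjusted p from 0.0535 to 0.0959). Without the 2 libraries low in Alb, 4 of 6 passed, with Axl at 4.23 (adjusted p = 0.00142), Ccn2 at 3.82 (adjusted p = 0.00361), Ankrd1 at 2.33 (adjusted p = 0.0465) and Ccn1 at 1.36 (adjusted p = 0.0389), in a fit that called 1990 genes higher and 1628 lower.

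Homeostatic assembloids had Ccn2 at 26.5, 2144 and 183 TMM CPM, above every MM HepOrg library, as were 5.13% of genes. The log2 fold change was 5.27 (SE 1.21, edgeR adjusted p = 0.149) for Ccn2 and 5.24 (1.44, adjusted p = 0.149) for Ankrd1, and 2.38 (0.67, adjusted p = 0.131) and 2.27 (0.79, adjusted p = 0.191) without the libraries low in Alb. Ccn1, Amotl2, Axl and Ajuba were between −0.03 and 1.35, and without those libraries Ccn1 was at −0.09. None of the 6 passed and no gene did (0% called, with 2250 genes at an unadjusted p under 0.05, Ccn2 and Ankrd1 among them). DESeq2 called 688 genes higher and 206 lower, Ccn2 and Ankrd1 included, and without replicate 1 of the homeostatic assembloids edgeR called both (5.83, adjusted p = 0.0157, and 5.81, adjusted p = 0.02). The comparisons with homeostatic and with fibrotic-like assembloids share the MM libraries.

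Cell type markers moved with Ccn2, Ankrd1, Ccn1 and Amotl2 across the 12 assembloid libraries. Krt19, the keratin of cholangiocytes, was at 14.2, 1521 and 126 TMM CPM in homeostatic and 248, 77.4 and 932 TMM CPM in fibrotic-like assembloids at 1 week. It ran from 14.2 to 1633 TMM CPM over the 12 libraries. All 9 cholangiocyte markers together were at 5378 to 15507 CPM in assembloids, which overlapped the 3866 to 15499 CPM of HepOrgs. The range of Krt19 thus describes Krt19 and not the summed list. Ccn2 had a Pearson correlation of 0.96 with Krt19, and 0.95 over the 10 libraries without those low in Alb. With Msln, a marker of mesothelium, Ccn2 had 0.96 (0.93 over 10), and with Col1a1 0.45 (0.78 over 10). Ccn1 had 0.90 with Krt19, 0.90 with Msln and 0.50 with Col1a1 (0.84, 0.81 and 0.84 over 10). Ankrd1 had 0.89, 0.96 and 0.27 with the same markers (0.84, 0.91 and 0.63 over 10), and Amotl2 0.87, 0.90 and 0.40 (0.86, 0.89 and 0.76 over 10). Each of these genes thus moved with markers of more than 1 cell type. Ajuba had −0.38 with Krt19 over 12 libraries and 0.47 over 10. All 4 mesothelial markers together were at 0.0200 to 8.61 CPM in HepOrgs and freshly isolated hepatocytes and at 4.24 to 4209 CPM in assembloids, with both highest values in the libraries low in Alb. Msln alone had 148501 of 35278544 counts in the highest assembloid library and 205 of 48328695 in the lowest, nearly the whole of these sums. The range in assembloids thus describes Msln and not 4 markers that agree, and no mesothelium was added to the assembloids. Libraries in these correlations share their cell mixture, so they are a description, and the part of each cell type in the levels was not tested.

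**Figure D4:**
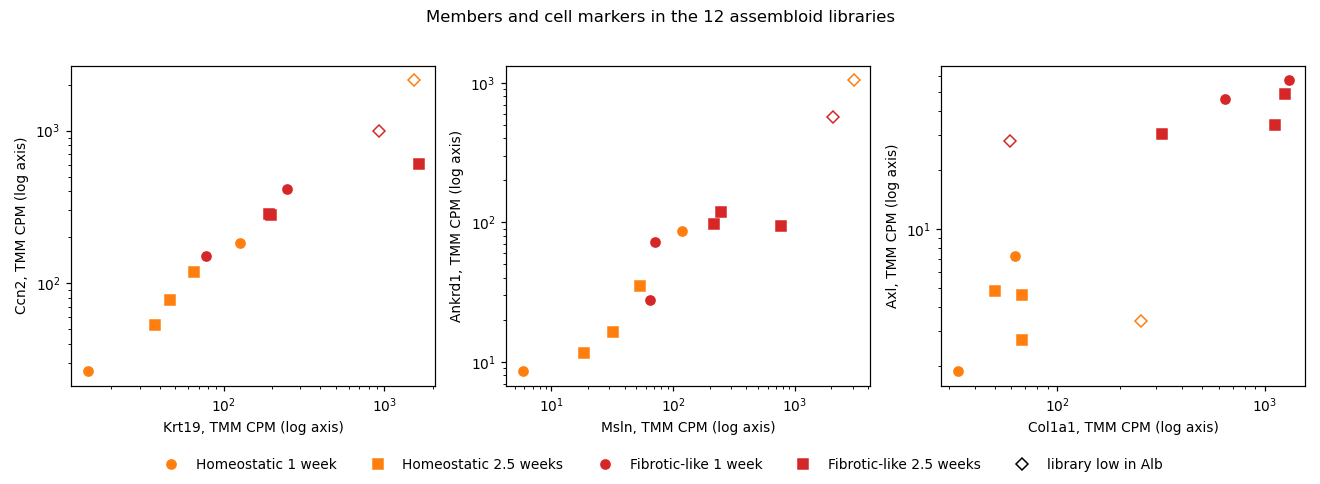
Ccn2 against Krt19, Ankrd1 against Msln and Axl against Col1a1 in the 12 assembloid libraries, in TMM CPM on log axes. Colours are homeostatic and fibrotic-like assembloids, circles 1 week, squares 2.5 weeks and open diamonds the libraries low in Alb. Ccn2 rises with Krt19 through both types (r = 0.96), and the fibrotic-like library low in Alb has Axl at 28.0 with Col1a1 at 59.4.

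The members tracked each other to different degrees. Over the 12 assembloid libraries the Pearson correlation of log2 TMM CPM was 0.96 for Ccn1 with Ccn2, 0.96 for Ccn2 with Ankrd1 and 0.94 for Ccn1 with Amotl2 (0.94, 0.92 and 0.94 over 10 libraries). Over the 12 HepOrg libraries Ccn1 had 0.11 with Ccn2 and 0.84 with Ankrd1, and Amotl2 had 0.86 with Ajuba. These are descriptions over libraries that share conditions and replicate numbers.

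Genes with the most similar pattern were sought by the Pearson correlation of log2 TMM CPM over the 27 libraries among 7494 genes with a mean of at least 3 on that scale. For Ccn1 they were Ccnd1 (0.88), Wsb1 (0.87) and Fryl (0.86), and for Ccn2 Ezr (0.96), Ccng1 (0.96) and Cxcl16 (0.96). For Ankrd1 they were Sema3c (0.97), Cldn4 (0.97) and Zc2hc1a (0.97), of which Cldn4 is also in the cholangiocyte marker list, and for Amotl2 Mprip (0.88), Nuak2 (0.83) and Ccnd1 (0.81). Over the 25 libraries without those low in Alb the 3 genes named for Amotl2 were at 0.81, 0.77 and 0.75. Over the means of the 9 conditions its 3 most similar genes were others, Plcb3 (0.97), H3f3a (0.92) and Tln1 (0.91). Axl was most like Tnfrsf21 (0.88), Marcksl1 (0.87) and Ecm1 (0.81). The genes named for Ccn1, Ccn2, Ankrd1 and Axl were at 0.83 or more over the same 25 libraries. For Ajuba, Hspbap1 (0.98), Rgs19 (0.97) and Fuca2 (0.97) led, and over the 25 libraries without those low in Alb their values were 0.94, 0.94 and 0.91. The libraries of a condition share its medium and cell mixture, so the 27 points are not independent.

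The coactivators and TEAD factors themselves were measured in the same libraries. Yap1 was at 20.8, 21.7 and 23.3 TMM CPM in the 3 freshly isolated libraries from lowest to highest and at 21.1 to 34.8 TMM CPM in HepOrgs. It passed the test in 1 of 4 comparisons with hepatocytes, HM-Wnt at 2 weeks (log2 fold change 0.43, edgeR adjusted p = 0.0326). Wwtr1, which encodes TAZ, was at 4.29 to 7.33 TMM CPM in hepatocytes and 20.8 to 30.3 TMM CPM in HepOrgs, and was higher in all 4 comparisons by 1.98 to 2.19. Yap1 and Wwtr1 thus differed in how they stood in HepOrgs, and the difference between them was not tested.

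Tead2 was at 0.0272 to 0.298 TMM CPM in hepatocytes and 2.35 to 10.1 TMM CPM in HepOrgs (log2 fold change 4.18 to 5.29), and Tead4 at 0.0543 to 0.426 and 0.751 to 4.73 TMM CPM (2.19 to 3.85), and both passed in all 4 comparisons. Tead1 (0.28 to 0.97) and Tead3 (−0.30 to 0.02) passed in none. Vgll4, which competes with the coactivators for TEAD, was lower in all 4 by −1.85 to −0.90. Of the 7 genes of this list 3, 4, 3 and 3 rose and 1 fell in each comparison, in HM-Wnt at 1 and 2 weeks and in MM at 1 and 2 weeks. Of all genes 49.7%, 51.8%, 42.8% and 39.7% passed there. Between media at 2 weeks Tead4 was lower in MM (−1.65, edgeR adjusted p = 0.0190), and none of the other 6 genes of this list passed. In fibrotic-like assembloids at 1 week Tead2 was at 13.9 to 16.4 TMM CPM and in homeostatic ones at 0 to 3.92 TMM CPM, with no gene past the threshold. Of all genes, 17.4% were higher in every fibrotic-like library in this way, and the 0 was in the homeostatic library low in Alb.

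**Figure D5:**
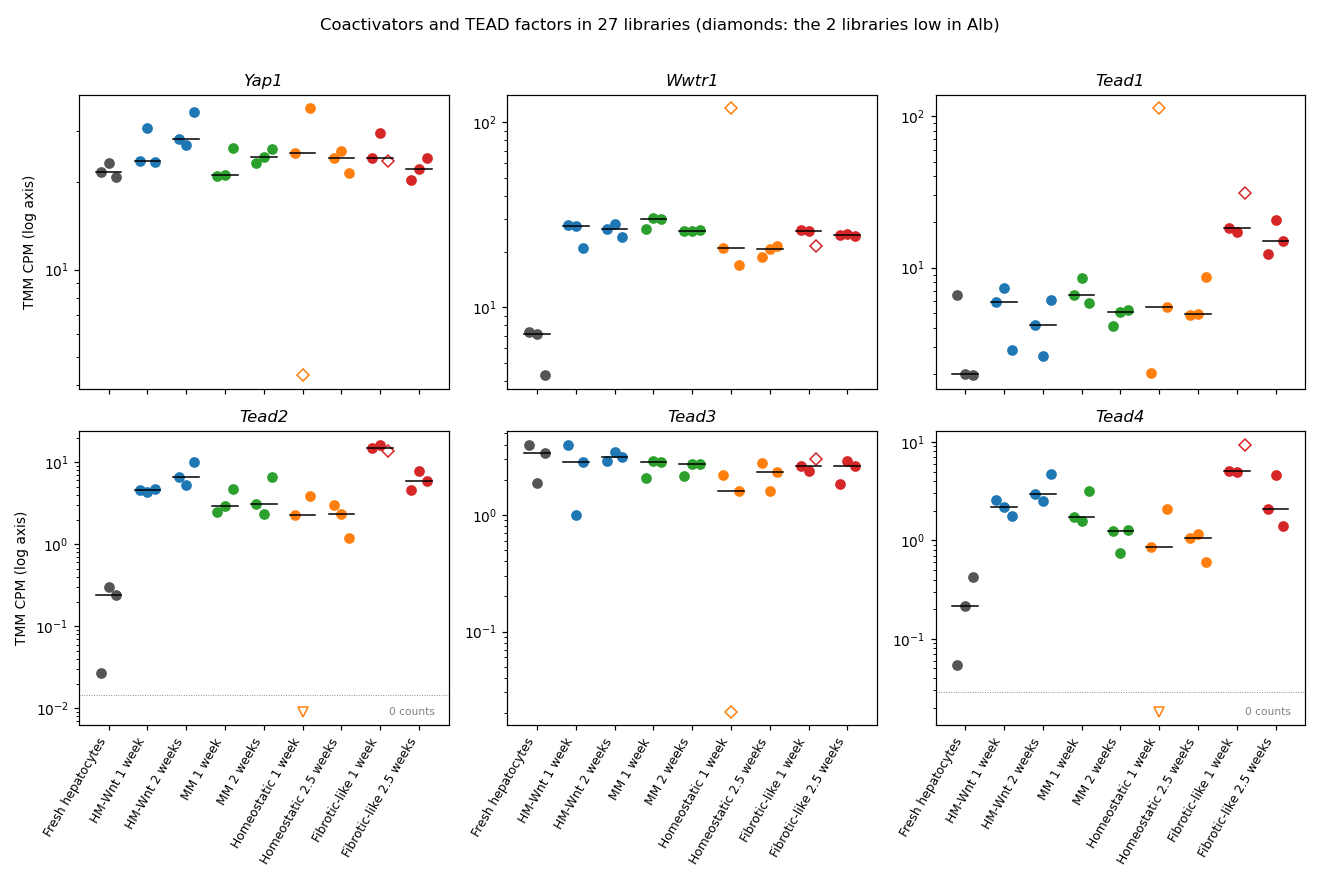
Level of Yap1, Wwtr1 and Tead1 to Tead4 in TMM CPM (log axis) in the 9 conditions. Points are libraries, lines are medians, open diamonds are the libraries low in Alb and open triangles are libraries with 0 counts. Wwtr1, Tead2 and Tead4 are lower in the 3 freshly isolated libraries than in the 12 HepOrg libraries, and Yap1 stays between 20.4 and 35.9 in all libraries but 1.

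Further YAP and TAZ target genes, 16 in all of which 15 were tested in these fits, were counted in the same way. Against hepatocytes 6 rose and 2 fell in HM-Wnt at 1 week and at 2 weeks, 8 rose and 2 fell in MM at 1 week and 6 rose and 2 fell in MM at 2 weeks, and the list's median was 0.67 to 1.36. So 8, 8, 10 and 8 of 15 passed, where 49.7%, 51.8%, 42.8% and 39.7% of all genes did. Tgfb2, a TGF-β ligand, was at 0 to 0.128 TMM CPM in hepatocytes and 6.19 to 27.5 TMM CPM in HepOrgs, and passed in all 4. Myof, a membrane repair protein, was higher by 4.77 to 5.58 and Nt5e, an ectonucleotidase, by 3.86 to 4.47, and Igfbp3, which binds insulin-like growth factors, by 1.83 to 6.14. The kinase gene Nuak2 (−1.38 to −0.82) and Dock5, an exchange factor for Rac (−1.74 to −1.06), were lower in all 4. Between media at 2 weeks 1 of 15 passed, Igfbp3, at 11.4 to 31.8 TMM CPM in MM and 236 to 718 TMM CPM in HM-Wnt (log2 fold change −4.29). None of them passed in the assembloids. The list's median between fibrotic-like and homeostatic was 0.37 at 1 week and 2.17 at 2.5 weeks, beside 0.20 and 0.03 over all genes. At 2.5 weeks the median was 2.54 for cholangiocyte markers, 3.88 for mesenchyme markers and −0.48 for hepatocyte markers. A value as high as 2.17 was thus not particular to this list.

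Of 18 Hippo kinases and upstream regulators, 5, 6, 3 and 3 rose and 3, 3, 3 and 2 fell against hepatocytes in HM-Wnt at 1 and 2 weeks and in MM at 1 and 2 weeks, with medians of 0.02 to 0.13. In all 8, 9, 6 and 5 of 18 passed, where 49.7%, 51.8%, 42.8% and 39.7% of all genes did. Wtip, a LIM protein like Ajuba, was higher by 3.61 to 4.72, the kinase gene Map4k4 by 3.30 to 3.61 and Frmd6 by 1.08 to 1.44 in all 4. The atypical cadherin genes Dchs1 and Fat4 fell from 0.543 to 2.43 and 0.516 to 1.28 TMM CPM in hepatocytes to at most 0.140 and 0.0870 TMM CPM in HepOrgs. All 8 endothelial markers were lower in the same comparisons, and their part in this was not tested. Between media none of 16 tested passed at either time.

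Paralogues of the 7 genes were followed too, and of the 11 tested 4, 5, 3 and 4 rose and 1, 2, 1 and 1 fell in the same order, against the same shares of all genes. Ccn5, another CCN protein, was at 0 to 0.0426 TMM CPM in hepatocytes, 2.41 to 8.12 TMM CPM in HM-Wnt and 8.96 to 36.5 TMM CPM in MM. It was higher in MM than in HM-Wnt at both times (log2 fold change 2.51 and 2.74), and Ccn4 was lower in MM at 2 weeks (−3.09). Ankrd2 was at 0.380 to 2.96 TMM CPM in MM and at most 0.108 TMM CPM in HM-Wnt, and passed as higher in MM at both times. Of the TAM receptors, Mertk fell, from between 16.8 and 24.9 TMM CPM in hepatocytes to between 0.208 and 1.84 TMM CPM in HepOrgs, and Tyro3 was higher by 2.68 to 3.48, while Axl did not pass by edgeR. Mertk, like Axl, is also known from macrophages and endothelial cells. All 8 endothelial markers were lower in HepOrgs, while of 8 immune markers 7, 6, 6 and 3 were lower and 1 was higher in each comparison. The part of those cells was not tested.

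Immediate early and SRF target genes were followed because Ccn1 and Ankrd1 also respond to serum and actin signals. Of 11 immediate early genes, 3, 3, 5 and 8 fell and 1 rose in each comparison with hepatocytes, where 24.8%, 25.7%, 21.3% and 20% of all genes fell. Their summed level of 4662 CPM in hepatocyte replicate 1 was above all HepOrg libraries, and the 948 and 1161 CPM of replicates 2 and 3 were below all 6 HM-Wnt libraries (1437 to 2831 CPM). Nr4a1 (−4.80 to −3.67), Zfp36 (−2.78 to −2.10) and Dusp1 (−2.74 to −1.24) were lower in all 4, and the one that rose was Ier3 (6.44 to 8.02). Egr1 was lower in MM than in HM-Wnt at both times (−1.40 and −2.29), and Ier2 and Ier3 were at 2 weeks (−1.25 and −1.57). The summed level of the list was 661 to 794 CPM in MM at 2 weeks and 1965 to 2831 CPM in HM-Wnt, in the comparison where Ccn1 was lower, and its part in that was not tested. Of 10 SRF and actin target genes, 3, 3, 2 and 2 rose and 2, 2, 1 and 1 fell against hepatocytes, with Flna and Tpm1 higher and Tagln lower in all 4. In all 5, 5, 3 and 3 of 10 passed, where 49.7%, 51.8%, 42.8% and 39.7% of all genes did.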

How the data were processed

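Bulk RNA was sequenced from 27 libraries of 9 conditions, with 3 libraries each. By the study's methods the authors made SMART-seq libraries with Nextera tagmentation, aligned paired reads to GRCm39 with STAR and counted them per gene with featureCounts, and used DESeq2 for their own comparisons. The values deposited by the authors are raw read counts per gene, with no normalization, and TPM beside them. The deposited gene length behind the TPM lay within 5% of the gene span for 80.8% of 21705 matched genes and within 5% of the exonic length for 7.1%, so TPM served only as an alternative and for levels. The table also holds 10 libraries that were not used. Its eGFP and tdTomato entries (0 to 0.108% of counts) were left out of library sizes and tests.

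The counts were tested in R 4.3.3 with edgeR 4.0.16 (quasi-likelihood, TMM factors, filterByExpr at its defaults of 10 for the smallest count and 15 for the total), with Benjamini-Hochberg adjustment over all genes tested and a threshold of 0.05. Separate fits held HepOrgs with hepatocytes, HepOrgs alone, assembloids alone, and assembloids with MM HepOrgs. Levels on the log2 scale used a prior count of 2. Alternatives were DESeq2 1.42.0, limma 3.58.1 on log2(TPM + 1) with at least 1 TPM in 3 libraries, no filter, at least 10 counts in every library, a replicate block, only the 2 groups compared, and each library left out. Those chosen after seeing the data were voom with sample weights and leaving out the 2 assembloid libraries low in Alb. A floor is 3 counts in a library and covers counting error only.

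The 7 genes and all gene lists were chosen with earlier results of these data known. Named were the 7 genes, Yap1, Wwtr1 and Tead1 to Tead4, from each list up to 3 genes at either end of the log2 fold changes past the threshold, and for each of the 7 the 3 genes most correlated with it, leaving out predicted gene names. Lats1 and the single marker genes were chosen after their values were seen. The fits were tested first on simulated data with 200 changed genes. At log2 fold changes of 2 and 5, 80% and 98% of these were found in HM-Wnt HepOrgs against hepatocytes. Between media it was 82% and 98%. For fibrotic-like against homeostatic assembloids it was 0% and 44%, and for homeostatic assembloids against MM HepOrgs 5% and 55.5%, all at 1 week.

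Same-numbered HepOrg libraries deviated together (18 of 18 pairs had a correlation over 0.1 of deviations from group means, against 2 of 36 pairs with different numbers). In HepOrgs the numbers were thus read as pairing the libraries, but the main fits held group means only and left this pairing out. HepOrg values are from fits without the block except where it is named. In the fit with hepatocytes 19 of 30 same-numbered pairs were over 0.1, among assembloids 6 of 18 and in the fit of assembloids with MM HepOrgs 11 of 45, where the libraries share only a number.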

Additional observations from a re-analysis of the deposited data

Results flagged for a closer look

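The reporter transcripts lie outside the comparisons above. eGFP was at 0.418 to 1068 CPM (median 22.9) and tdTomato at 0.186 to 113 CPM (median 9.78) in all 12 assembloid libraries. In the other 15 libraries eGFP had 1 count in 1 library (0.024 CPM) and tdTomato had none.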

How the results depend on the processing

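Over the 16 comparisons the 6 tested genes gave 96 log2 fold changes, 17 past the threshold, and 1392 values under an alternative. Of these, 1233 kept direction and side of the threshold, 32 lost a call (23 of them with 1 library left out), 43 gained one and 84 changed sign, none of the last among the 17. The cause was not tested for any of them. Lats2 had no test in any setting, and interactions could not be fitted with only the 2 groups.

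The number of the 6 genes past the threshold moved by over 1.5 times as follows. With at least 10 counts in every library it was 2 in MM HepOrgs at 1 week against hepatocytes, and 4 in fibrotic-like assembloids against MM HepOrgs. For fibrotic-like against homeostatic assembloids at 1 week it was 1 by DESeq2, 1 by limma on log2(TPM + 1), 1 without the libraries low in Alb, 2 by voom and 0 to 1 with 1 library left out. At 2.5 weeks it was 1 by DESeq2, 4 with only the 2 groups, 1 without the libraries low in Alb and 1 by voom. For homeostatic assembloids against MM HepOrgs it was 2 by DESeq2 and 0 to 2 with 1 library left out. For fibrotic-like assembloids against MM HepOrgs it was 4 by DESeq2, 5 by limma, 5 with only the 2 groups, 4 without the libraries low in Alb, 6 by voom and 0 to 1 with 1 library left out. Between media at 2 weeks it was 0 to 1 with 1 library left out. Smaller moves against hepatocytes, with all libraries kept, were from 4 to 3 in HM-Wnt at 1 week (at least 10 counts, limma, only the 2 groups), from 3 to 2 in HM-Wnt at 2 weeks (at least 10 counts), from 4 to 5 (DESeq2) or 3 (no filter, limma, block, only the 2 groups) in MM at 1 week and from 4 to 3 in MM at 2 weeks (at least 10 counts, limma, only the 2 groups). The filter of at least 10 counts left Ankrd1 untested there.

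With the replicate block, 1 gene (Amotl2) passed between media at 1 week, Ccn1 in MM at 1 week against hepatocytes was lost (edgeR adjusted p = 0.0663), and Ccn2 between assembloid types at 1 week was 0.43. No other call of the 6 genes changed with the block.

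On log2(TPM + 1), which moved the median of all genes to between 0.40 and 0.68 against hepatocytes and to 0.87 between assembloid types at 1 week, the sign turned for Ccn1 in HM-Wnt (0.12 and 0.89 at 1 and 2 weeks), Amotl2 (0.70 in HM-Wnt at 2 weeks, 0.17 in MM at 1 week) and Axl (0.16 in HM-Wnt at 2 weeks), and between assembloid types at 1 week for Ccn2 (1.65) and Ankrd1 (0.91). There, leaving out the libraries low in Alb gave 1.42 and 0.05, and voom 1.98 and 0.70. By voom, Ccn2 in homeostatic assembloids was 0.00 between the times. With 1 library left out, Ccn1 against hepatocytes ran from −0.97 to 0.31 in HM-Wnt at 1 week and −0.54 to 0.72 at 2 weeks (above 0 without hepatocyte replicate 1). Amotl2 in HM-Wnt at 2 weeks ran from −0.36 to 0.35, and Axl from −1.46 to 0.46 in HM-Wnt and −1.63 to 0.12 in MM at 2 weeks. Between assembloid types at 1 week Ccn2 ran from −1.38 to 2.3 and Ankrd1 from −2.83 to 2.21 (above 0 without homeostatic replicate 2).

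At a depth of 30289364 counts or more, Lats2 was the only one of the 7 genes with too few counts to test. Whether reads shared with Gm49361 were left unassigned was not tested.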
